A study of Mus musculus with 4 samples.

Results

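Wild-type (WT) splenic CD4+CD25+ cells of 7-week-old mice were described from 2 RNA-seq libraries, out of 4 libraries in the series. CD4+CD25+ is the surface phenotype by which mouse regulatory T cells (Tregs) are commonly sorted. The libraries are WT replicate 1 and WT replicate 2, made from RNA of sorted cells. The Ikzf2-/- libraries of the series were not used, and no comparison of genotypes was made. A gene was counted as expressed when its value was 10 or more in both libraries, and 11128 of the 16383 genes in the table (67.9%) met this rule. The labels give no sex, strain or number of mice per sample, nor whether each library had its own animals, so the spread between the libraries may be partly technical. CD25 also appears on activated conventional T cells, so the sort does not select Tregs alone. Pairs of values below are for replicate 1 and then replicate 2.

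Tregs restrain other immune cells. Their identity rests on the transcription factor Foxp3, and they depend on interleukin 2 made by other T cells, which they take up through a receptor that contains CD25, the product of Il2ra. In the spleen, most Tregs recirculate and carry lymph node homing molecules (central Tregs), and a smaller fraction carries activation and tissue homing molecules (effector Tregs).

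The deposited unit is reads, normalised by the submitters, for each kb of the median length of a gene's transcripts. The read numbers behind the values could be recovered and came to 52543070 and 50940293 over the table. The median value of expressed genes was 1258, and their middle 90% lay between 24.96 and 14410. Of the expressed genes, 10840 were protein coding. A mean value of at least 100 was reached by 9379 genes, of at least 1000 by 6103 genes and of at least 10000 by 955 genes. The 100 highest genes held 19.5% of the summed value of the table, and 793 genes held 50% of it. Just inside the threshold for expression, Gab2 had 13.0 and 10.002, and just outside it Tnni1 had 17.6 and 9.995.

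Cd4 and Il2ra, the genes of the surface molecules used in the sort, and the Treg genes Foxp3 and Ctla4 were all among the 200 highest genes. Foxp3 (ENSMUSG00000039521, mm10 chromosome X, 7573644 to 7595245, plus strand) had values of 37578 and 33448, which is rank 123 of the expressed genes. Il2ra, the CD25 chain used in the sort (chromosome 2, 11642807 to 11693193, plus strand), had 39462 and 39620.3 and rank 97. Ctla4, an inhibitory receptor that Tregs carry constitutively, had 28316 and 28016 and rank 189. Cd4, also used in the sort, had 39938 and 38190.5 and rank 101. The means of Il2ra and Cd4, 39541 ± 112 and 39064 ± 1236 (SD, n = 2), differed by less than the SD of Cd4, and Foxp3 (35513 ± 2919.9) and Ctla4 (28166 ± 212) followed. The noncoding gene Flicr, named after its values were seen, overlaps the start of Foxp3 on the same strand and had 1042 and 1488. Reads from sequence that both genes hold cannot be assigned to one of them.

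The promoters of these markers are shown because they differ in base composition from those of most expressed genes. Each window runs from 250 bases before to 50 bases after the most upstream RefSeq start of the gene (GRCm38.p6, the assembly of mm10), is read 5′ to 3′ on the strand of the gene, and has its CG dinucleotides in capitals. Foxp3 lies at chrX:7579426-7579725 (plus), Il2ra at chr2:11642542-11642841 (plus) and Ctla4 at chr1:60908775-60909074 (plus). Arhgef1, a regulator of the GTPase RhoA and among the 20 highest genes, lies at chr7:24902736-24903035 (plus) and stands for the promoters rich in CG.
Foxp3: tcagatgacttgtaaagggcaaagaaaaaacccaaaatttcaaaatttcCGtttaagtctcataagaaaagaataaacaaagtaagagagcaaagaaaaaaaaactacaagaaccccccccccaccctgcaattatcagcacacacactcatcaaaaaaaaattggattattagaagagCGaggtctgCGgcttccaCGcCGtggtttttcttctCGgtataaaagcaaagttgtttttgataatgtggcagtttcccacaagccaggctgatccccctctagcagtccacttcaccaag
Il2ra: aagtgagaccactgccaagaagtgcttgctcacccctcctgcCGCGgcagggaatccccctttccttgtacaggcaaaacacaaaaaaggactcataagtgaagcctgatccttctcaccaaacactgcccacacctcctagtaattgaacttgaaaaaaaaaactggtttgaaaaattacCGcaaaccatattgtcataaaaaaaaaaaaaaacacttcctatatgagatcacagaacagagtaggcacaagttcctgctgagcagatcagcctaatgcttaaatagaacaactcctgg
Ctla4: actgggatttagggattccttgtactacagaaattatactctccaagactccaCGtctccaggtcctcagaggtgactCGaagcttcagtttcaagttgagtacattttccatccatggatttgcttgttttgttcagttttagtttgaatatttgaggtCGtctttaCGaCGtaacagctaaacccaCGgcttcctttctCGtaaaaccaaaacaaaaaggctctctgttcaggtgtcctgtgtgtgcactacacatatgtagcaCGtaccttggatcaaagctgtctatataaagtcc
Arhgef1: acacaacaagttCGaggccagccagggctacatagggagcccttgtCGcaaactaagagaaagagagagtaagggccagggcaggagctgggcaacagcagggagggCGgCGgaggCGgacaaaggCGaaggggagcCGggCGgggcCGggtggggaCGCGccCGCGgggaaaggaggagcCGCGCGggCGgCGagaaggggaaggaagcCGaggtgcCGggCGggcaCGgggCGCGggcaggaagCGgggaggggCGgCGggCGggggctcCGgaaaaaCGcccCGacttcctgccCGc
The Foxp3 window held 6 CG dinucleotides, that of Il2ra 3, that of Ctla4 8 and that of Arhgef1 32. The letters TATAAA began 32 bases before the start of Foxp3 and 40 bases after the listed start of Ctla4.

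Across 12250 genes of the table with a matched promoter, expressed genes had a median of 21 CG dinucleotides per window and genes under 10 in a library had 8. Of the 1855 genes with 4 or fewer CG dinucleotides, 34.9% were expressed, against 85.9% of the 3326 genes with 20 to 29. The median value of the expressed ones was 316 in that first class and 1615 in the other. The letters CCGGAAGT, a core of ETS factor sites, were found on either strand in 8.91% of expressed and 1.15% of the other promoters. The perfect palindrome of the NRF1 motif was found in 2.27% and 0.403%, and GGGCGG, the GC box, in 65.2% and 39.3%. TATAAA ran the other way, with 6.76% and 14.9%. CCAAT was close in both, with 38.9% and 36.1%. CCGGAAGT, the NRF1 palindrome and GGGCGG each hold CG, in which the groups differ, while TATAAA and CCAAT do not. The part of CG content in these gaps was not tested. Among the 500 highest expressed genes, CCGGAAGT was in 8.6%, the NRF1 palindrome in 1.6% and GGGCGG in 67.6%. Lists differed in their median number of CG dinucleotides. It was 8 for Treg identity (17 promoters), 8 for the T cell receptor complex (15 promoters) and 3 for migration receptors (15 promoters). It was 19 both for naive and central genes (15 promoters) and for nuclear genes of the respiratory chain (20 promoters). Over all 12250 windows, CCGGAAGT was in 6.71%, the NRF1 palindrome in 1.74%, GGGCGG in 57.9%, TATAAA in 9.07% and CCAAT in 38.1%, each searched on both strands. These matches describe letters in a window and do not show binding.

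**Figure D1:**
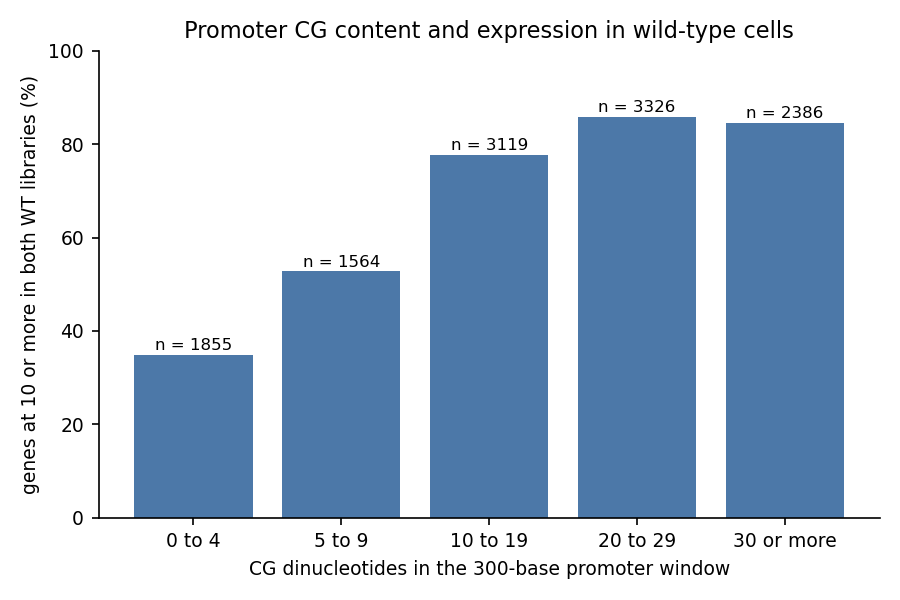
Share of genes at 10 or more in both WT libraries (percent, vertical axis) by the number of CG dinucleotides in the 300-base promoter window (horizontal axis), with the number of promoters above each bar. The share was 34.9% in the class with the fewest CG dinucleotides and 85.9% in the class of 20 to 29.

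Most markers of other spleen cells had low values, and none of the 8 lists for such cells came near the Treg identity list in its median. B cell genes had a median of 69.9 over the 11 expressed of 14 measured, with summed values of 2538 and 1996. Ms4a1 (CD20) had 35.2 and 8.38 and Pax5, the B lineage factor, had 3.73 and 2.79. Macrophage and monocyte genes had a median of 213 over 12 expressed of 14, with sums of 2068 and 3329. Csf1r, the macrophage growth factor receptor, had 473 and 802, and C1qb, a complement subunit, had 175 and 354. Of 12 neutrophil genes only Ltf was expressed, at 57.6 and 31.3, and Mpo and Elane had no read in either library, which allows values up to 3.88 and 2.87 per library at a limit of 3 reads (counting error only). The summed values of the 12 neutrophil genes were 147 and 77.9. Natural killer and cytotoxic genes had a median of 213 over 11 of 11, led by Nkg7 at 2237 and 2518 and Gzmb at 699 and 1718. Ncr1, a receptor that marks natural killer cells, had 74.4 and 99.3. Cd8b1, a CD8 chain, had 705 and 658, and Cd8a had 20.2 and 17.6. Of 10 dendritic genes 7 were expressed, with a median of 47.6. Of 9 erythroid and platelet genes and of 10 stromal and endothelial genes, 4 each were expressed, with medians of 91.6 and 84.0. The share expressed over all genes was 67.9%. The B cell, macrophage and monocyte, natural killer, CD8 and dendritic lists were not below that share, so they were low in value and not in the count of expressed members. The neutrophil, erythroid and platelet, and stromal and endothelial lists were below it. Bst2 in the dendritic list (4541 and 4789) and Pecam1 in the stromal list (5483 and 4938), both also read in lymphocytes, lay far above the other members of their lists. In bulk samples, fewer cells of a type and less RNA per cell cannot be told apart, so these sums are not cell shares.

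**Figure D2:**
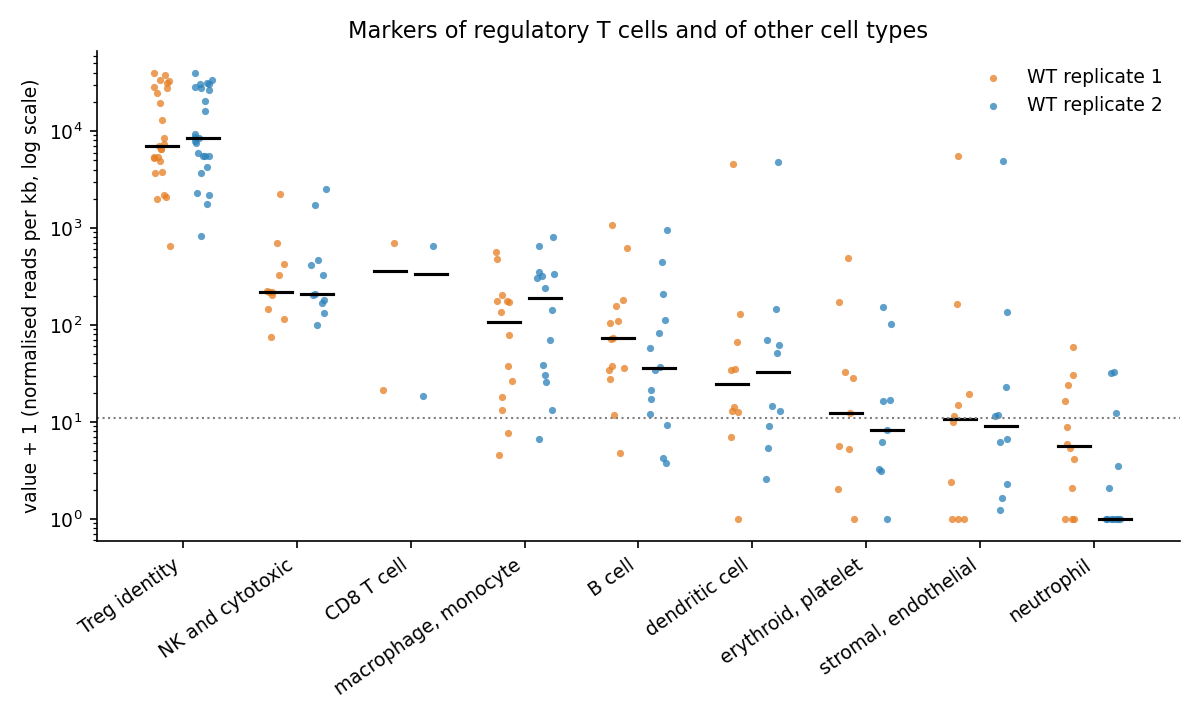
Value + 1 (normalised reads per kb, log scale) of each measured member of the Treg identity list and of lists for other cell types, for WT replicate 1 (orange) and WT replicate 2 (blue), with medians as black bars and the expression threshold as a dotted line. The Treg identity members lie between 658 and 39620, above nearly all markers of other cells.

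Actb, cytoplasmic beta actin, was first with 428523 and 485928, followed by H2-K1, a classical MHC class I heavy chain, with 411008 and 358532 and Shisa5, a membrane protein of the endoplasmic reticulum, with 384668 and 348629. Coro1a, an actin-binding coronin of leukocytes, had 266213 and 217270, and Laptm5, a lysosomal membrane protein of blood cells, had 250176 and 226692. Actin genes and MHC class I genes have near-identical relatives, so their values are uncertain where shared reads are concerned. The other genes among the first 20, with mitochondrial, ribosomal protein and antigen receptor genes set aside, were the GTPase Rac2, the integrin chain Itgb7, the actin-sequestering Tmsb4x, Eif4g2, Arhgef1, Lcp1, Jak1, Lck, Ly6e, Flna, Rsrp1, Hsp90ab1, Atp5b, Eef2 and Ucp2. These 20 lay between 93838 and 457225 by mean value. Itgb7, which pairs with alpha 4 or alpha E chains in gut homing and epithelial binding, had 195006 and 179287. Lck, the kinase that starts T cell receptor signalling, had 141353 and 113838, and Jak1, the kinase shared by interleukin 2, interleukin 7 and interferon receptors, had 163501 and 153704. Replicate 1 lay above replicate 2 in 16 of the 20, as it did in 6282 of the 11128 expressed genes, with a ratio of the summed values of 1.042. All 20 differed by less than 1.5-fold.

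The order of genes depended on the transcript length by which reads are divided. The median transcript length in the annotation includes short partial transcripts, and among expressed genes it had a median of 1329 bases, against 3060 bases for the longest coding transcript. For 2149 genes (19.3%) the longest coding transcript was at least 4 times the median length. Per kb of the longest coding transcript, a scale chosen after the data were seen, 50 of the 100 highest genes stayed among the 100 highest. Actb, H2-K1 and Coro1a held ranks 1, 2 and 4 on both scales. Flna, a large actin cross-linker with a coding transcript of 8456 bases and a median length of 832, was at rank 15 and at rank 153 per longest transcript. Eif4g2, a translation factor, moved likewise to rank 124 from 9. Foxp3 was at rank 75 on the second scale, Cd4 at 142, Ctla4 at 191 and Il2ra at 232. Below, a rank per longest coding transcript is added where a statement on order turns on it.

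Genes of Treg identity were high as a list. All 25 measured members of that list were expressed, with a median of 7817, against 1258 for all expressed genes. Next to the markers above, the highest were Tnfrsf4, Capg, Il2rb, Izumo1r and Tnfrsf18. Tnfrsf4 (OX40) had 33799.7 and 31478, Tnfrsf18 (GITR) had 27953 and 26647, and Il2rb, the beta chain of the interleukin 2 receptor, had 31343 and 28761. Izumo1r, the folate receptor 4 of Tregs, had 24721 and 30688, and Capg, an actin-capping protein, had 33118 and 30581. In both libraries Capg lay below Tnfrsf4 and above Il2rb, although its range over the libraries overlapped the range of each. The ranges of Tnfrsf4 and Il2rb did not overlap. Per longest coding transcript the first of the list were Tnfrsf4 (rank 24), Izumo1r (43), Il2rb (47) and Tnfrsf18 (49), all before Foxp3. Nrp1, a semaphorin receptor linked to thymic origin, had 6569 and 7609.5. Nt5e (CD73), which makes adenosine from AMP, had 6993 and 8641, and Entpd1 (CD39), which supplies that AMP from ATP, had 6565 and 5937. Ikzf2, which encodes Helios, had 5282 and 7864, the widest gap of this list at a log2 ratio of -0.57. The lowest was Rgs16, a regulator of G protein signalling, at 658 and 833, but per longest coding transcript Plagl1 (rank 8155) came after Rgs16 (rank 4984).

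Genes for suppressive products ranged from high to near the threshold. Of 17 measured members 16 were expressed, with a median of 1018. Tgfb1, the latent cytokine TGF-beta 1, had 11413 and 10486, Lgals1 (galectin 1) had 5805 and 6235 and Furin, a protease that matures TGF-beta, had 1797 and 1428. Il10, an anti-inflammatory cytokine, had 109.8 and 182, far below Tgfb1 in both libraries. Ebi3, a subunit of interleukin 27 and interleukin 35, had 969 and 688, and Il12a, its partner in interleukin 35, had 0 and 2.19 and was not expressed by the rule. Gzmb, a granzyme, had 699 and 1718, and Prf1, perforin, had 424 and 323. Itgb8, the integrin chain that activates TGF-beta, had 393 and 548, and Areg, a tissue repair factor, had 44.9 and 50.8.

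Central and effector programmes were both read, the central one at higher values. All 18 measured naive and central genes were expressed with a median of 8371, and all 24 measured effector Treg genes with a median of 2469. Ccr7, the chemokine receptor of the T cell zone, had 17736 and 12643, and S1pr1, the receptor for exit from lymphoid tissue, had 12911 and 12158. Both exceeded the median of expressed genes in both libraries. Tcf7, the TCF1 factor of naive and memory T cells, had 18491 and 16193, and Klf2, which drives S1pr1, had 7822 and 7441. Klf3, a repressor of the same family, had 22732 and 20519. Il7r, which Tregs carry at lower levels than naive T cells, had 9974 and 8248, and Dapl1 was lowest at 243 and 174. In the effector list, per deposited value, Gata3 led with 21095 and 18363, then Tnfrsf1b (TNF receptor 2) with 19120.5 and 17765, Batf with 7120.3 and 9085 and Pdcd1 (PD-1) with 5790.4 and 6520. On the longest-transcript scale Tnfrsf1b (rank 190), Batf (413), Pdcd1 (430) and Klrg1 (605) all came before Gata3 (1223). Klrg1, a marker of terminal effector Tregs, had 4386 and 5601, and Il1rl1 (ST2), the interleukin 33 receptor, had 1084 and 1281. Of other factors in the list, Rora had 3205 and 3691 and Relb had 3779.8 and 3372. Prdm1 (Blimp-1) had 734 and 702, Irf4 had 659 and 752 and Maf had 412 and 545. Whether both programmes sit in the same cells cannot be read from bulk RNA.

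Among helper lineage factors Gata3 and Batf had the highest values, and genes of the interleukins of helper cells were low. Among the factors, 18 of 19 measured were expressed with a median of 1050. Zbtb7b (ThPOK), which fixes the CD4 lineage, had 5281 and 6261. Tbx21 (T-bet, Th1) had 452 and 407 and Bcl6 (follicular helper) had 608 and 449, both below Gata3 on either length scale. On the longest-transcript scale Gata3 was at rank 1223, Bcl6 at rank 5749 and Tbx21 at rank 6410. Zbtb16 (PLZF), the factor of innate-like T cells, had 13.6 and 13.0. Of 21 measured cytokine and ligand genes, 14 were expressed and 7 were not, near the share of 67.9% expressed over all genes of the table. Genes of TNF family ligands were the higher ones. Ltb, lymphotoxin beta, had 64835 and 55919 and rank 44, and Lta followed with 3596 and 3897. Tnfsf8 (CD30 ligand) had 1658 and 1438, Cd40lg had 1482 and 1227 and Tnf had 933 and 1085. Ifng had 99.6 and 119, Il2 had 32.9 and 40.1, Il4 had 21.6 and 41.4 and Il21 had 15.3 and 60.1. The gene of the cytokine Il2 was thus near the threshold while all 3 genes of its receptor were high. Il17f had 3.95 and 18.3, Il13 had 0 and 0.777 and Il5 had 1.84 and 0. Il17a and Il9 had no read, which allows values up to 2.41 and 5.26 per library at 3 reads.

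**Figure D3:**
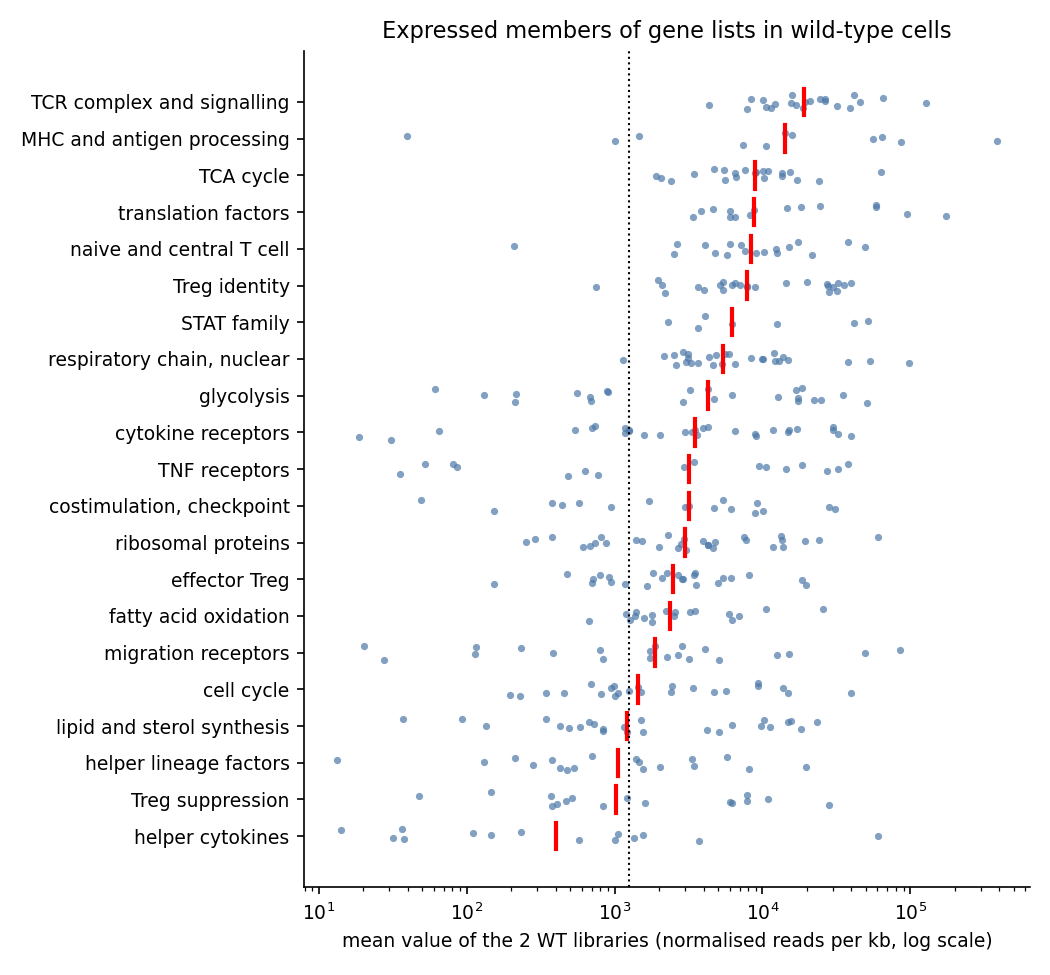
Mean value of the 2 WT libraries (normalised reads per kb, log scale) for each expressed member of 21 gene lists, with the list median as a red bar and the median of all expressed genes as a dotted line. The T cell receptor list has the highest median, 19229, and helper cytokines the lowest, 403.

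Genes of the T cell receptor and its first signalling steps had the highest median of the lists compared, 19229 over 22 of 22 expressed, with Thy1 lowest by deposited value at 4450.3 and 4273. Cd3d had 63568 and 67412, Cd3e had 32153 and 31262 and Cd3g had 25723 and 27468. Cd247, the zeta chain, had 11844 and 11002. The kinase Zap70 had 10982 and 10221 and its adaptor Lat had 28310.2 and 24620.2. Cd5, a brake on receptor signalling, had 21209.8 and 20999, and Cd28, the main costimulatory receptor, had 9787 and 10279.5.

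The 3 chains of the interleukin 2 receptor and Ifngr1 led the cytokine receptors. All 29 were expressed, with a median of 3508. Il2rg, the common gamma chain, had 32512 and 32279, next to Il2ra and Il2rb as given above. Per longest coding transcript the order was Il2rb (rank 47), Il2rg (67), Il21r (118) and Il27ra (147). Ifngr1, a chain of the interferon gamma receptor, had 28773 and 31601, and its partner Ifngr2 had 1284 and 1221. Il4ra had 18306 and 16077, Il21r had 14294 and 15827 and Il27ra had 12436 and 11011. The chains of the TGF-beta receptor were close to each other, Tgfbr2 with 3777 and 3478 and Tgfbr1 with 3269.7 and 3746. Il12rb2, the Th1-restricted chain of the interleukin 12 receptor, had 22.8 and 14.7, and Il23r had 55.2 and 74.5. Il12rb1, which serves both receptors, had 3293 and 2679, and Il18r1, of the interleukin 18 receptor, had 1089.7 and 1409. Il1r2, a decoy receptor for interleukin 1, had 1281 and 1874, whereas the signalling receptor Il1r1 had 19.5 and 42.0.

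Migration receptors, all 21 expressed with a median of 1873, ran from Selplg at the top to myeloid receptors near the threshold. Selplg, the ligand for P- and E-selectin, had 89278 and 81547, at rank 23. Below Ccr7 and S1pr1 came Gpr183, the oxysterol receptor, with 5122 and 5088, S1pr4 with 4350.4 and 3806 and Ccr6 with 3031 and 3345. Receptors for inflamed tissue, skin and follicles formed a middle group. Cxcr3 (Th1-type homing) had 3351 and 2357, Ccr8 had 2686 and 2674, Ccr4 (skin and Th2-type homing) had 2227 and 2289 and Cxcr5 (follicle homing) had 1985 and 1761. Ccr2, a receptor shared with monocytes, had 495 and 1107. Ccr1, mostly myeloid, had 25.2 and 29.7, and Cx3cr1 had 18.3 and 21.9. Of 15 integrin genes 14 were expressed, and Itgb7 had the highest value. The size of its lead depended on length, with Itgb7 at rank 27 and Itgb2 at rank 79 per longest coding transcript. The beta 2 chain Itgb2 had 21589.5 and 20704, and its partner in LFA-1, Itgal, had 14845 and 13287. Of the partners of Itgb7, Itga4 had 5873 and 7433 and Itgae (CD103) had 1973 and 2211. Itgam, the myeloid alpha chain, had 6.69 and 25.04.

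Of costimulatory and checkpoint receptors, all 17 measured were expressed, with a median of 3166. Vsir (VISTA) led with 31509 and 30009.7 and Ctla4 came next, but per longest coding transcript Ctla4 was first (rank 191) and Vsir at rank 826. Icos had 5331 and 5480.3 and Btla had 4831 and 4631. Lag3 had 269 and 487 and Havcr2 (TIM-3) had 103 and 204, well below Pdcd1. Cd86, a ligand usual on antigen-presenting cells, had 3193 and 2829.8, and Cd40, another gene of those cells, had 76.0 and 85.5. All 16 TNF receptors were expressed, with a median of 3182, led by Cd27 with 35810.3 and 39519.8 ahead of Tnfrsf4 and Tnfrsf18. The order was Tnfrsf4 (rank 24), Tnfrsf18 (49) and Cd27 (83) per longest coding transcript. Tnfrsf9 (4-1BB) had 12896 and 15936, Tnfrsf25 (DR3) had 9994 and 8948 and Fas had 3360.4 and 3509.

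Of the Ikaros, forkhead, STAT, NF-kappaB and NFAT, AP-1 and Krüppel-like genes measured, Stat6 and Stat3 had values above Foxp3. Stat6, the interleukin 4 factor, had 55348 and 48255, and Stat3 had 42418 and 40880.1. Of the factors that act below interleukin 2, Stat5b had 4302 and 3810.1 and Stat5a had 2503 and 2078, and their neighbouring genes share part of their sequence. Per longest coding transcript the order turned, and Foxp3 (rank 75) came before Stat6 (212), Stat3 (565) and Stat5b (869), with the inhibitor Nfkbia (57) the one gene of these families ahead of it. Of the Ikaros family, Ikzf1 (Ikaros) had 10216 and 9913, Ikzf3 (Aiolos) had 3997 and 3793, Ikzf4 (Eos) had 3668 and 3676 and Ikzf5 (Pegasus) had 25.02 and 49.8. Per longest coding transcript Ikzf3 (rank 1742) and Ikzf1 (1760) were close and Ikzf2 (3200) came after them, so the order of this family is not settled by these values. Of the forkhead genes, Foxp1, a factor of T cell quiescence, had 9689 and 10929, Foxo1 had 2596 and 2459 and Foxp2 had 2.39 and 2.38. Of NF-kappaB and NFAT genes, the inhibitor Nfkbia had 28239 and 28267, the subunit Rela had 19899 and 16578 and Rel (c-Rel), which acts in Treg development, had 691 and 803. Nfatc3 had 7637 and 8190.1. Of AP-1 and immediate early genes 16 of 19 were expressed, beside 67.9% of all genes of the table. Their median was 1872, against 1258 for all expressed genes, and they ranged from 42.1 to 8103. Junb had 7505 and 6078 and Nr4a1, a reporter of T cell receptor signalling, had 6322 and 6752. Fos had 683 and 679, Egr1 had 1652 and 1607, Atf3 had 3.95 and 20.1 and Fosb had 11.9 and 7.99. Of Krüppel-like factors, Klf3 was highest and Klf6 (10954 and 9837) next, but per longest coding transcript Klf2 (rank 304) came before Klf3 (779).

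Genes of MHC class I presentation were among the highest, and class II genes were lower. All 11 measured members were expressed, with a median of 14106. B2m, the light chain of class I, had 78712 and 93796, and the peptide transporter gene Tap2 had 68081 and 60621. Of class II genes, the invariant chain Cd74 had 7503 and 7312 and the heavy chain H2-Aa had 1229 and 1717. Ciita, the class II activator of antigen-presenting cells, had 35.3 and 43.9. Conventional mouse T cells are known to carry little MHC class II, and the summed B cell and macrophage lists given above bear on these genes; their part was not tested.

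Genes of oxidative metabolism were expressed almost throughout, as were those of glycolysis and of lipid and sterol synthesis. The share expressed over all genes of the table was 67.9%. Isoenzymes of glycolysis differed widely in value. The median was 8864 for the TCA cycle (21 of 21), 5445 for nuclear respiratory chain genes (28 of 28), 4254 for glycolysis (23 of 23), 2381 for fatty acid oxidation (18 of 19) and 1217 for lipid and sterol synthesis (25 of 25). Sdha, the flavoprotein of complex II, had 65345 and 61626 and Atp5b, the catalytic subunit of ATP synthase, had 101444 and 94049. Ucp2, an uncoupling protein of the inner mitochondrial membrane, had 103248 and 84428. Ldha, which makes lactate, had 54029 and 47607, and Ldhb had 3105 and 2690.1. Of the hexokinases, Hk1 had 26395 and 23242 and Hk2, the isoenzyme induced in activated T cells, had 123 and 138. Of glucose carriers, Slc2a3 (GLUT3) had 17634 and 17195 and Slc2a1 (GLUT1) had 5417 and 4031, with ranks of 1633 and 4066 per longest coding transcript. Cpt1a, the gate of mitochondrial fatty acid uptake, had 8259 and 12799.8 and Acsl5, a fatty acid activating enzyme, had 26515 and 24899. Fasn, fatty acid synthase, had 20092 and 16258. The glutamine and neutral amino acid carrier Slc1a5 had 51849 and 52357, Slc7a5 (LAT1) had 8086 and 6018 and the cystine carrier Slc7a11 had 2.46 and 0.3496. In the mTOR list, the kinase Mtor had 3649 and 2928 and Pik3cd, the leukocyte form of PI3 kinase, led with 27696 and 23653. Cell cycle genes had a median of 1449 over 23 of 23, with Mki67 at 589.6 and 1040.1 and Top2a at 4338 and 6943, and Ccnd2, a G1 cyclin, was the highest of that list at 37932 and 41950.4, with Ccnd3 (rank 500) before it (rank 582) per longest coding transcript.

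Levels of genes with near-identical copies elsewhere in the genome are uncertain because how shared reads were assigned is not given in the sources used here. For each gene, the share of its 31-base stretches that annotated transcripts of another gene also hold was computed. Only stretches on the same strand were counted, so overlap with antisense transcripts is left out, although the libraries carry no strand marks. Expressed genes with under 1% shared had a median of 1273 (7741 genes), those with 10% to 50% shared had 1288 (1037 genes), those with 50% to 90% shared had 399 (251 genes) and those above 90% had 43.1 (64 genes). The 30 expressed ribosomal protein genes had a median share of 51.2% and a median value of 2987. Within them, the 15 genes with under 50% shared had a median of 7544, and the 15 others had 2807. The groups overlapped, with means from 379.5 to 60076 under 50% shared and from 252.9 to 13720.6 in the others. Rpl4, with 32.2% shared and the highest of the first group, had 56443 and 63709.5. Rps6, with 84.9% and the lowest of the other group, had 264 and 242. Gapdh, a glycolytic enzyme with 84.1% shared, had 3189.8 and 3235, and Pgk1, with 68.3%, had 215 and 209.5. The part of shared reads in these values was not tested.

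The libraries had nearly the same values for most genes. Across the 11128 expressed genes, Pearson's r of log2(value + 1) was 0.993 and Spearman's rho was 0.995, given as a description over genes, which are not independent replicates. The log2 ratio of replicate 1 over replicate 2 had a median of 0.03 and an SD of 0.32, and 10437 genes (93.8%) lay within 1.5-fold. At least 2-fold apart were 161 genes (1.45%), 50 of them higher in replicate 1 (0.449%) and 111 higher in replicate 2 (0.997%). With 1 library against 1 there is no test of such a gap. Of the 100 highest genes of each library, 91 were the same. Under 100 reads per gene, the median absolute log2 ratio was 0.35, against 0.22 from counting error alone. At 10000 reads or more it was 0.12, against 0.01 from counting error. Of the 161 genes, 117 had fewer than 100 reads.

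**Figure D4:**
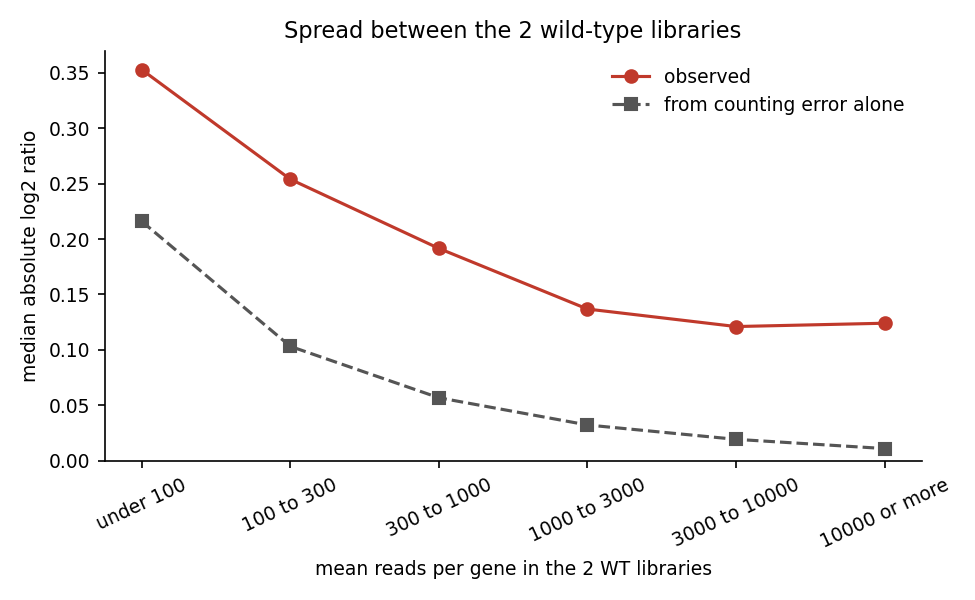
Median absolute log2 ratio between the 2 WT libraries (vertical axis) for expressed genes in classes of mean recovered reads (horizontal axis), as observed (circles) and as given by counting error alone (squares). The observed spread levels off near 0.12 from 3000 reads, while counting error falls to 0.01.

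**Figure D5:**
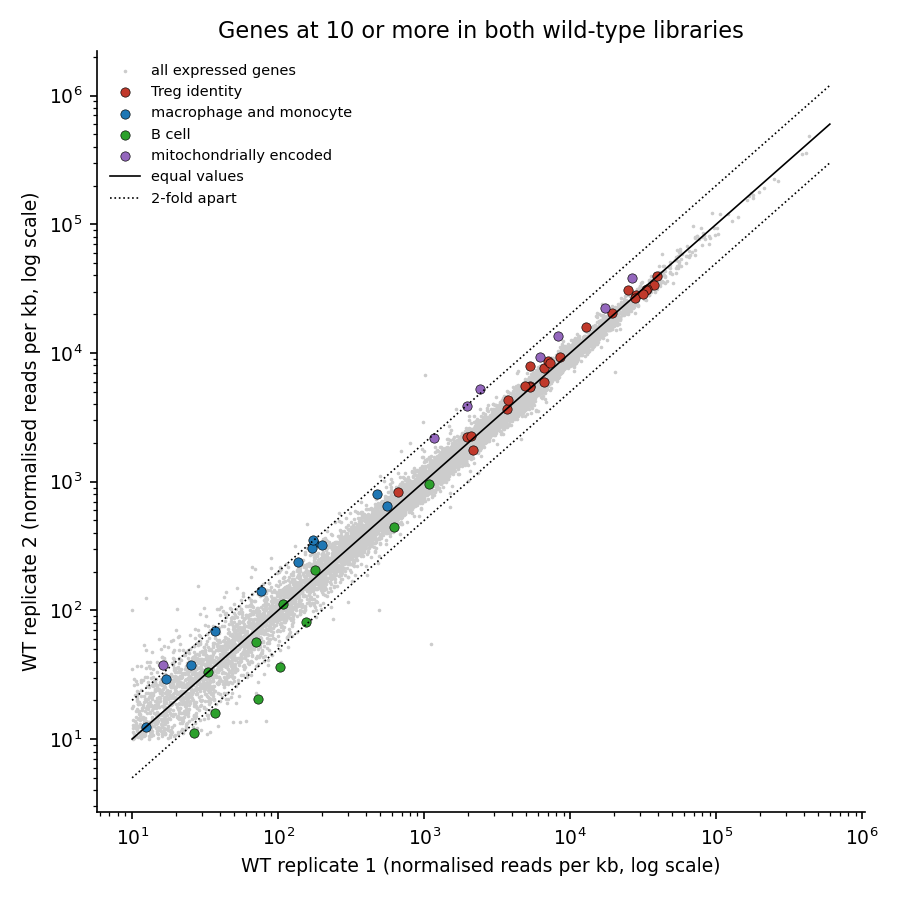
Value in WT replicate 2 against value in WT replicate 1 (normalised reads per kb, log scales) for the 11128 expressed genes, with Treg identity, macrophage and monocyte, B cell and mitochondrially encoded genes coloured. Mitochondrially encoded genes and most macrophage and monocyte genes lie above the line of equal values, and most B cell genes lie below it.

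The members of several lists were shifted the same way between the libraries, against a median log2 ratio of 0.03 over all expressed genes, of which 6282 of 11128 were higher in replicate 1. All 8 measured mitochondrially encoded genes were higher in replicate 2, with a median log2 ratio of -0.81. mt-Cytb had 26667 and 38522, mt-Co1 had 17322 and 22443 and mt-Nd2 had 2397 and 5274. Of 23 cell cycle genes 19 were higher in replicate 2 (median -0.35), among them Mki67 and Top2a. Of 12 expressed macrophage and monocyte genes 11 were higher in replicate 2 (median -0.78), and of 11 expressed B cell genes 9 were higher in replicate 1 (median 0.47). Of 25 genes of lipid and sterol synthesis 23 were higher in replicate 1 (median 0.32). Among these, Sqle, a sterol enzyme, had 1499 and 821. Effector Treg genes had a median of -0.17 with 17 of 24 higher in replicate 2. The Treg identity list had a median of -0.06, with 17 of 25 higher in replicate 2. No member was 2-fold apart, beside 1.45% of all expressed genes, a share at which lists of this size can have none. The cell cycle list and the naive and central list also had no such member.

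Single genes stood far apart in a few cases. Among 9165 protein-coding genes with a mean of at least 100, 10 were at least 2-fold higher in replicate 1 and 17 in replicate 2. The widest was Oasl2, an interferon-induced gene of the oligoadenylate synthetase family, with 1109 and 55.1, from 981 and 49 reads. Ctse, the aspartic protease cathepsin E, was the widest the other way with 1011 and 6781, from 1975 and 13311 reads. Rplp0, a protein of the ribosomal stalk, had 20296 and 7145 with 53.3% of its stretches shared with other genes, while the related Rplp1 had 4703 and 4795 and Rplp2 had 1837 and 2158. Hbb-bs, an adult beta globin, had 492 and 101. Gzmb and Ccr2 were more than 2-fold higher in replicate 2, as were Treml4 (52.5 and 149) and Fcna (131 and 317), genes known from macrophages, and Rab35, a GTPase of endosomal recycling (975 and 2889.9). The summed macrophage and monocyte list, 2068 and 3329, lies in the same direction as Treml4 and Fcna, and its part in these gaps was not tested. Also beyond 2-fold, or among the 10 widest in a direction, were Aldh1l1, Idua, Galnt9, Phlda3 and Tspan9, higher in replicate 1, and Ggt1, Wdr66, Ccdc80 and Slc15a2, higher in replicate 2.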

How the data were processed

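RNA of sorted CD4+CD25+ spleen cells was sequenced. Per the labels' protocols, full-length cDNA came from 5 ng of RNA with 10 PCR cycles, and tagmented libraries from 12 more, without strand marks, so a gene and its antisense partner share reads. The submitters' processing notes name bcl2fastq 2.17.1.14 and build mm10. How reads were aligned and counted is not given in the sources used here. Per the file headers, the deposited signal values are reads that the authors normalised and expressed per kb of median transcript length. With 1 group of 2 libraries, no test was made.

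Reads were recovered from the value steps and GENCODE M21 lengths, and with a tolerance of 0.01 read 97.2% of nonzero values in each library came out whole. The sums of 52543070 and 50940293 are of these recovered reads, with the submitters' normalisation removed, and cover genes in the table alone. Of 21951 annotated coding genes, 4425 (20.2%) have identifiers beyond the last one listed (not analysed here). The expression threshold was 10 in both libraries, log2 values used a pseudocount of 1, and SDs are over 2 libraries. Promoters are from RefSeq (12250 genes matched, GRCm38.p6; Cd4 had no entry). Intervals and read limits cover counting error only, since PCR copies are not independent molecules.

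Gene lists (38 lists, 575 of 612 symbols found in the table) and the described libraries were chosen with earlier results of these data known. Named genes were the 20 highest (mitochondrial, ribosomal protein and antigen receptor genes aside), the markers, the 4 highest, the most discordant and the undetected members of lists, and the 10 widest gaps per direction with a mean of at least 100. Some genes that this rule would name are not reported here. Other list members were named for their known roles after their values were seen. The code was tested on simulated data. Alternatives were other thresholds, pseudocounts, scalings and transcript lengths, and leaving out each library. Python 3.11.15, pandas 2.3.3, NumPy 2.4.6, SciPy 1.17.1 and matplotlib 3.10.9 were used.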

Additional observations from a re-analysis of the deposited data

How the results depend on the processing

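The number of expressed genes lay between 9259 and 13593 over the thresholds tried. The number of genes at least 2-fold apart between the libraries was 823 of 13593 with no filter on low values and 21 of 9259 with a minimum of 100, against 161 of 11128 as reported. It was 185 after scaling to the same summed value, 181 after scaling to the same median ratio and 180 with a pseudocount of 0.1. With reads in place of values per kb, 60 of the 100 highest genes stayed and those 100 held 15.4% of the sum. Per kb of the longest coding transcript, added after the data were seen, 50 stayed and the share was 19.1%. With 1 library left out, the share was 19.5% to 19.6% and 94 to 97 genes stayed. On the longest-transcript scale the rank percentile of Foxp3 was 99.331 (98.899 as reported, 98.881 to 98.971 with 1 library left out), of Il2ra 97.920 (99.133, 99.061 to 99.187), of Cd4 98.728 (99.097, 99.088 to 99.115), and Ctla4 had 98.288 to 98.360 with 1 library left out. On that scale the median percentile rose in 27 of 38 lists and fell in 11, and moved by over 10 points in 11. The cause of these shifts is the length used. Low counts limit genes under 100 reads, where counting error alone gives a median absolute log2 ratio of 0.22. No paired analysis was possible because only WT libraries were described and no test was made.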

Other observations

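Some high genes lie outside the gene lists and were picked after their values were seen. Cdh4, which encodes R-cadherin, a cell adhesion protein best known from the nervous system (mm10 chromosome 2, 179442431 to 179899373, plus strand), had 69015 and 97123 and rank 26. Per longest coding transcript it was at rank 303, with a median transcript length of 587 bases and a longest coding transcript of 6388 bases. Gas5, a noncoding host gene of small nucleolar RNAs, had 9605 and 11164. Of the 11128 expressed genes, 288 were not protein coding, among them 70 processed pseudogenes, 47 small nucleolar RNA genes and 30 long intergenic RNA genes. The library was made from polyA RNA, so values of small RNA genes may be reads of their host transcripts, which was not tested.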
